A study of Rattus norvegicus with 4 samples.

Results

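The Wnt and beta-catenin pathway was followed in the hippocampus of aged rats through the probe sets of its ligands, antagonists, receptors, cytoplasmic regulators and nuclear effectors. Its members were all probe sets to which the platform annotation gave exactly 1 gene symbol, where that symbol began with Wnt, Fzd, Dvl, Dkk, Sfrp or Tcf7 or was Axin1, Axin2, Lef1, Ctnnb1, Ctnnbip1, Apc, Lrp5, Lrp6, Btrc, Porcn, Wif1, Nkd1, Tle1, Tle3, Tle4 or Pkp4. This gave 84 probe sets of 48 genes among 31042 probe sets other than array controls. The RNA came from male Wistar rats aged 16 months at dissection. Stressed rats had gone through 4 weeks of chronic unpredictable mild stress, a changing series of mild stressors, from an age of 15 months, and the age-matched control rats were kept in standard housing. There were 2 arrays for each group, described as biological replicates, and each carried hippocampal RNA pooled from 3 rats, so that each p measured the spread between pools and not between single animals.

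Wnt proteins are secreted lipid-modified ligands that bind Frizzled receptors together with the co-receptors Lrp5 and Lrp6. Without a ligand, a cytoplasmic complex built on Axin and Apc marks beta-catenin for breakdown, and with a ligand Dishevelled disables this complex, beta-catenin accumulates and switches TCF and LEF factors from repression to activation. In the adult hippocampus the pathway is known for its roles in neurogenesis of the dentate gyrus and in synapse maintenance, and in brain vessels for upkeep of the blood-brain barrier. Beta-catenin also has a separate place at cell junctions, where it ties cadherins to the actin cytoskeleton.

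Stress was accompanied by changes of single pathway transcripts in both directions, most of them small. The largest falls were those of a Pkp4 probe set and of Axin2, and the largest rises those of a Lef1 probe set and of the receptor gene Fzd4. A brighter Pkp4 probe set rose, by 0.30 on the log2 scale, and another Lef1 probe set stayed near 0, at 0.09. The Lef1 probe set that rose reached a signal of 100 on the stressed arrays alone. Of the 84 member probe sets, 41 probe sets of 27 genes reached a signal of 100 on 2 or more arrays and entered the test, and 43 did not. By limma on log2 signals, with Benjamini-Hochberg adjustment over all 14791 probe sets tested, 10 members were higher and 5 were lower in stressed rats at adjusted p under 0.05, while 26 did not pass. These were 24.4% higher and 12.2% lower, beside 12% higher and 11.8% lower among all probe sets tested. The 15 probe sets belonged to 11 genes, so that several of them measured the same gene and are not independent of each other. At the study's thresholds of 2-fold or more and unadjusted p under 0.05, 1 member was higher and 1 was lower, against 0.216% and 1.38% of all probe sets tested. The median log2 fold change was 0.05 over the tested members and 0.02 over all probe sets tested, and 10 of the 15 changes were under 1.5-fold. With 2 arrays a group, the smallest two-sided p of an exact permutation test is 0.333, and each call rests on the spread shared over probe sets. All 15 calls were lost by the methods' t-test, run on log2 signals (adjusted p from 0.0797 to 0.28).

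**Figure D1:**
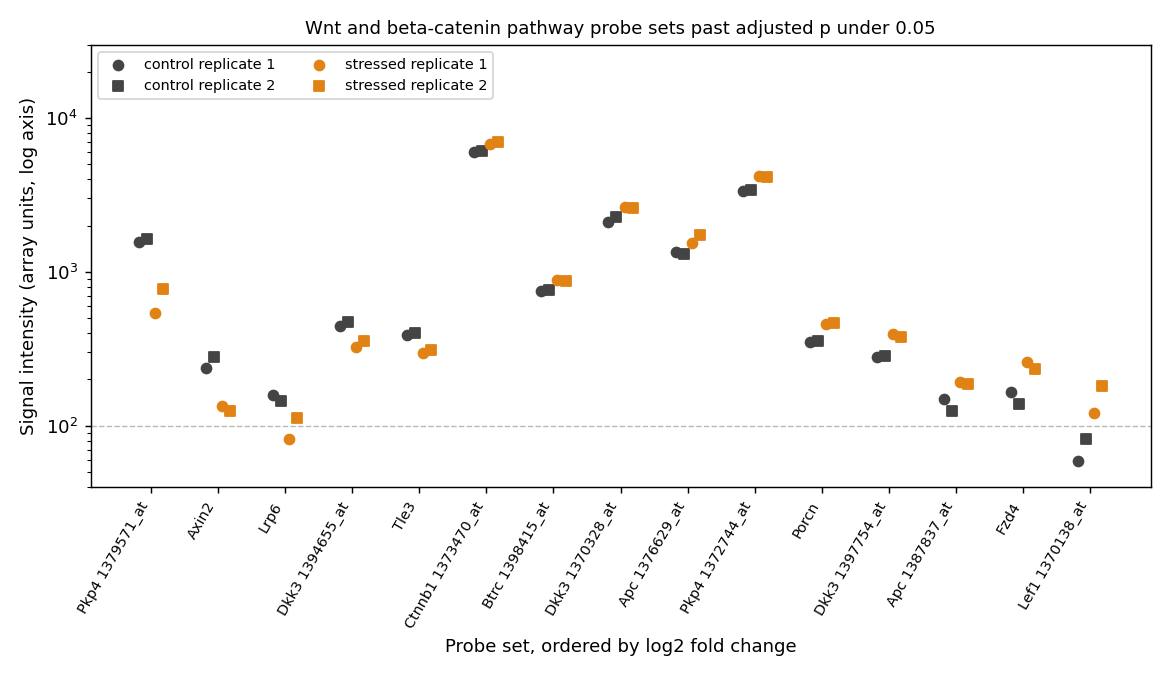
Signal intensity on each of the 4 arrays (log axis, array units) for the 15 pathway probe sets past adjusted p under 0.05, ordered by log2 fold change; grey points are control and orange points stressed arrays, and the dashed line is the signal of 100. The stressed and control arrays do not overlap at any of the 15 probe sets, and the control arrays of Lef1 lie below 100. The 15 were chosen by the test on these same arrays, so that the lack of overlap adds no support. Groups did not overlap at some members that did not pass either, such as Fzd2 and Fzd8.

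**Figure D2:**
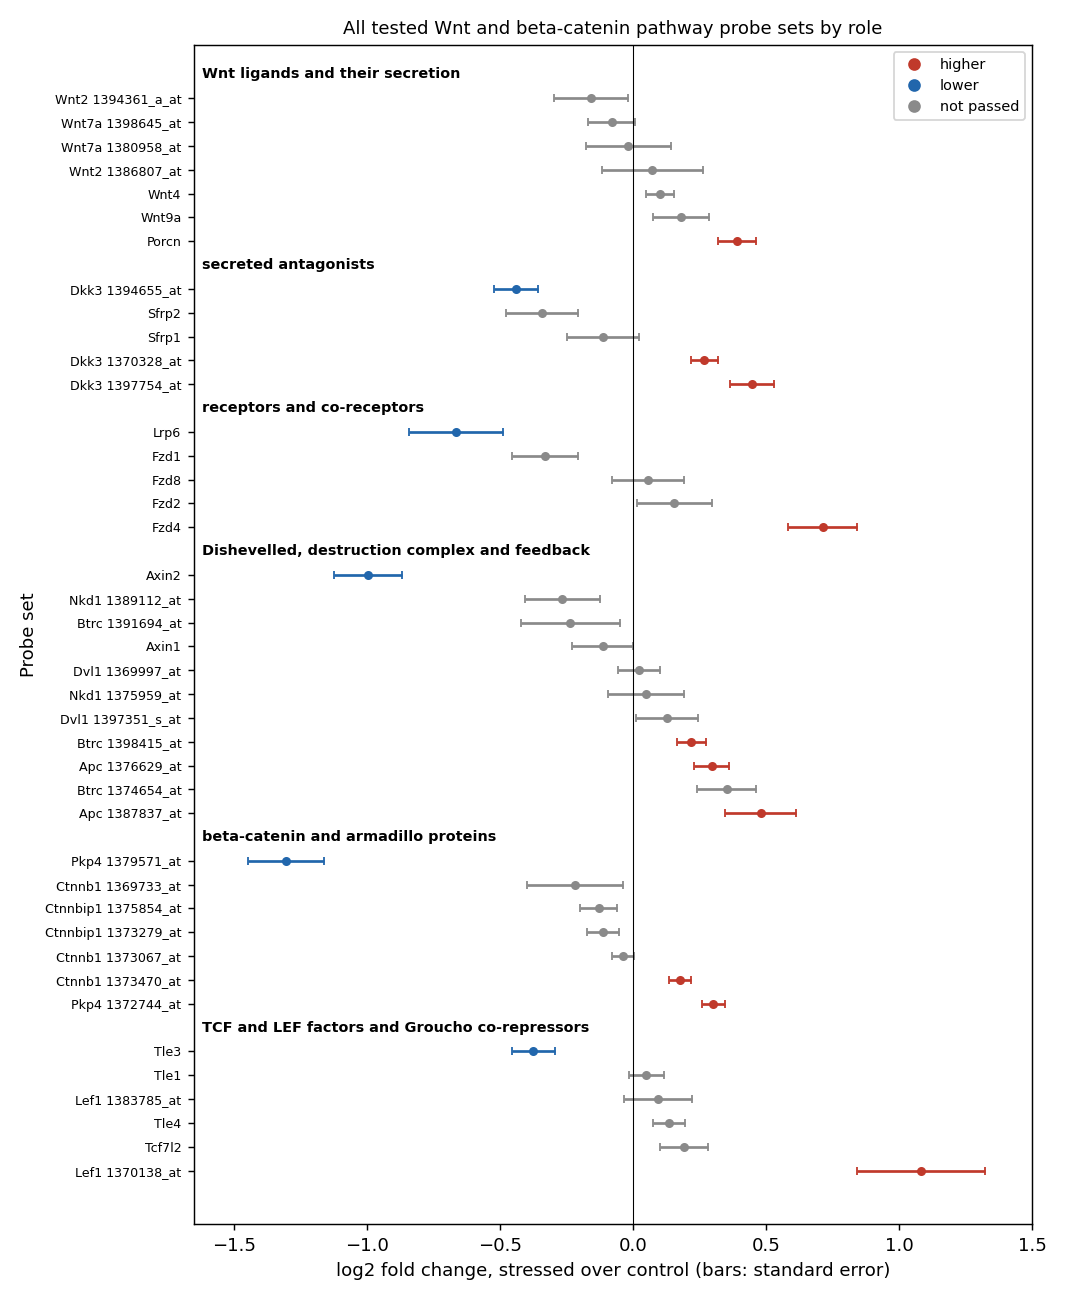
Log2 fold change of stressed over control rats with its s.e. (n = 2 arrays in each group) for all 41 tested pathway probe sets, grouped by role and coloured by the limma call. Values run from -1.30 for a Pkp4 probe set to 1.08 for a Lef1 probe set, and each role holds both coloured and grey points.

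The arrays themselves were alike in scale. Median signals were 79.3 to 82.1, and 46.45% to 46.76% of probe sets reached 100 on each array. Across probe sets, which are no replicates of each other, log2 signals correlated at r = 0.993 and 0.994 within the groups and at 0.972 to 0.974 between them. Transcripts of hippocampal neurons were present, with signals of 589.6 to 656.8 for a probe set of Prox1, which marks dentate granule cells, and 2618.7 to 3033.5 for Neurod6, which marks pyramidal neurons. Single markers of hippocampal cells moved as well, in both directions. Of 18 tested probe sets of pyramidal neuron markers, 4 were higher and 5 lower at adjusted p from limma. Of 16 of astrocytes 2 were higher and 4 lower, and of 8 of microglia 1 and 3. Of 17 of oligodendrocytes and their precursors 3 were higher and 3 lower. Of 7 of dentate granule cells 1 was higher and none lower, and of 6 of neural progenitors and immature neurons 1 was higher and 1 lower. Over all probe sets tested 12% were higher and 11.8% lower. Markers of choroid plexus, meninges and endothelial cells moved mostly in 1 direction within each list. Of 12 tested probe sets of choroid plexus markers 9 were higher and none was lower at adjusted p from limma. At unadjusted p under 0.05, 11 were higher and none lower. Those of Aqp1, Cldn2, Kcne2 and Col8a1 reached 100 on the stressed arrays alone, and so passed the filter through the group in which they were high. The summed signal of the list was 21190.5 and 19841 on the stressed arrays against 15174 and 16943 on the control arrays. Most of this sum came from Ttr, which did not pass by limma (adjusted p = 0.0579), with Enpp2 next. Of 14 tested probe sets of meningeal markers, 10 were lower and 1 was higher, and their summed signal was 3665 and 3733 against 4603.7 and 4514.5. The 10 that were lower belonged to 6 genes, so that they are not independent of each other. Of 17 tested probe sets of endothelial markers 7 were higher and none was lower at adjusted p from limma, where 10 were higher and none lower at unadjusted p under 0.05, and the sums were 7664 and 7667 against 6513 and 6452. No marker of these lists was at 0 on any array, which does not mean that each was detected, since detection calls were not used. The methods' t-test called no marker of the choroid plexus, meningeal or endothelial lists at adjusted p under 0.05, and 8, 1 and 5 were higher and 0, 7 and 0 lower at unadjusted p. In whole tissue, fewer cells of a type and less RNA per cell cannot be told apart.

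**Figure D3:**
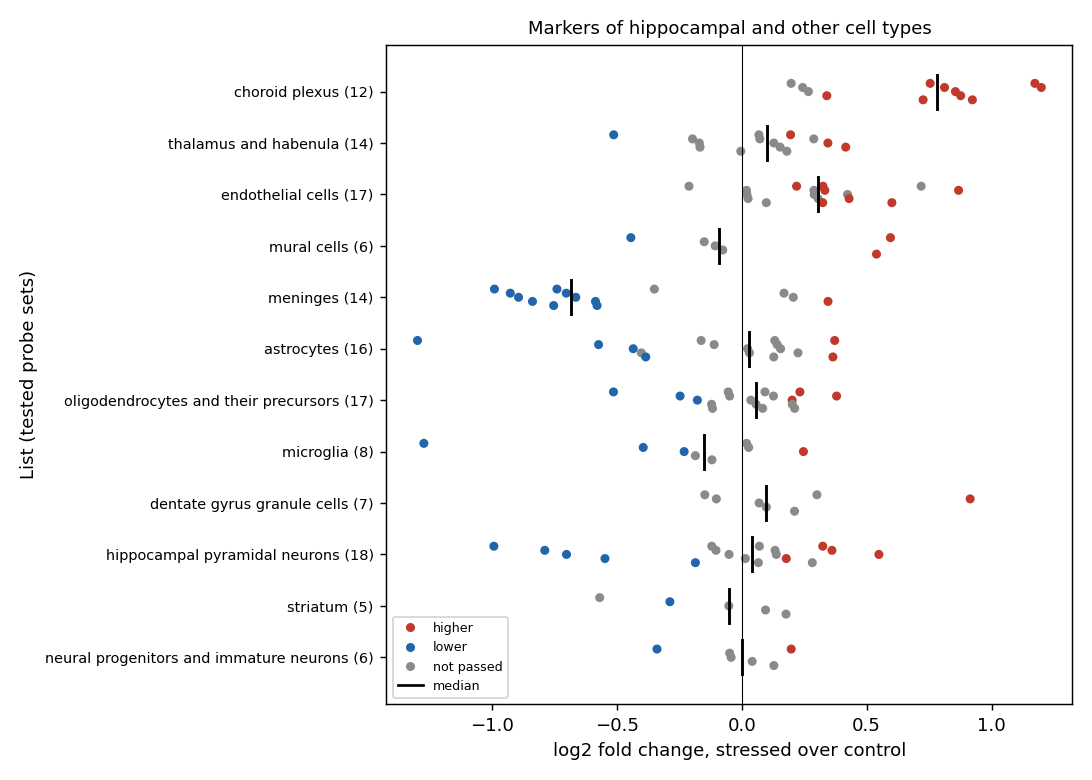
Log2 fold change of stressed over control rats for each tested probe set of 12 marker lists, with the number of tested probe sets in brackets, the limma call as colour and the list median as a black bar. The medians are 0.78 for choroid plexus, 0.31 for endothelial cells and -0.68 for meninges, and lie between -0.15 and 0.10 for the other lists. Several choroid plexus probe sets entered the test through the stressed arrays alone, and some lists with a median near 0 held calls in both directions.

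Most Wnt ligand probe sets were dim. Of 14 genes of ligands and ligand secretion 5 had a tested probe set, those of Wnt2, Wnt4, Wnt7a, Wnt9a and Porcn. Wnt1, Wnt2b, Wnt5a, Wnt5b, Wnt6, Wnt8b, Wnt10a, Wnt11 and Wnt16 were not tested, the highest signal of each of their probe sets lying between 2.3 and 92.3. No ligand passed the test in either direction by limma. None of their 6 probe sets was past unadjusted p under 0.05, the lowest being 0.0962 for Wnt4. Wnt4 had signals of 1205 and 1242 in stressed rats and 1110 and 1174 in controls, a log2 fold change of 0.10 with a 95% interval of -0.02 to 0.22. Wnt7a, a ligand for vessel growth and the blood-brain barrier, had log2 fold changes of -0.08 and -0.02 at its 2 probe sets. The interval of the brighter of them was -0.28 to 0.12, and its signals in both groups overlapped.

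Porcn encodes the acyltransferase that attaches the lipid needed for Wnt release, and its transcript rose. The signals were 458.2 and 462.9 in stressed rats against 348.8 and 353.5 in controls. Both stressed arrays lay above both control arrays, and the replicates of each group lay within 5 signal units of each other. The log2 fold change was 0.39 (standard error, s.e., 0.07, adjusted p = 0.00799), at the only tested probe set. A second, dimmer probe set had signals of 79.4 and 87.2 against 67.1 and 63.2 and was not tested. The rise at the tested probe set passed under every alternative run except the methods' t-test (adjusted p = 0.0797).

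Among secreted antagonists Dkk3 stood out by its brightness and by the disagreement of its probe sets. Dkk3 is a divergent member of the Dickkopf family and is abundant in hippocampal neurons. Its brightest probe set, 1370328_at, gave 2653 and 2590 in stressed rats and 2100 and 2259 in controls, a log2 fold change of 0.27 (s.e. 0.05, adjusted p = 0.00907), a call lost without an intensity trend (adjusted p = 0.0679). Its second probe set, 1397754_at, rose as well, from 278.2 and 284.1 to 391.8 and 375.4, a log2 fold change of 0.45 (adjusted p = 0.00765). By contrast 1394655_at fell from 445.7 and 474.7 to 324.6 and 354.6, a log2 fold change of -0.44 (s.e. 0.08, adjusted p = 0.00869). The groups did not overlap at any of these 3 probe sets, which adds no support because the test on these same arrays chose them. The direction of Dkk3 depended on the probe set read. Which transcripts each probe set measured was not examined. The call of 1370328_at was also lost without control replicate 1 (adjusted p = 0.0628), and that of 1394655_at without control replicate 2 (adjusted p = 0.0715).

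The other antagonists did not pass. Sfrp proteins and Wif1 bind Wnt ligands outside the cell. Sfrp2 had signals of 109.1 and 119.3 in stressed rats and 139.5 and 149.7 in controls, a log2 fold change of -0.34 with unadjusted p = 0.0369 and adjusted p = 0.107. Sfrp1 had signals of 137.0 and 119.5 against 140.3 and 136.5, a log2 fold change of -0.11. Sfrp4, Sfrp5, Wif1 and Dkk2 were below 100 on every array.

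Receptor transcripts changed in opposite directions. Fzd4, which encodes the Frizzled receptor best known from retinal and brain vessels, rose from 164.8 and 137.6 in controls to 259.1 and 235.4 in stressed rats. Both stressed signals lay above both control signals. The log2 fold change was 0.71 (s.e. 0.13, adjusted p = 0.00745), a rise of 1.64-fold. Without control replicate 2 it was 0.58, with an adjusted p of 0.0527. The second probe set of Fzd4 had signals of 8.7 or less and was not tested. Lrp6, the gene of a co-receptor that passes the Wnt signal to Axin, fell from 159.1 and 144.9 to 82.0 and 111.8. The groups did not overlap, but the stressed pools differed by nearly 30 units and 1 of them lay under 100. The log2 fold change of Lrp6 was -0.67 (s.e. 0.18, adjusted p = 0.0319) at its only probe set. Its call was lost without stressed replicate 1 (adjusted p = 0.118), control replicate 1 (adjusted p = 0.159) or control replicate 2 (adjusted p = 0.112), without an intensity trend (adjusted p = 0.0601) and when dim probe sets were kept in (adjusted p = 0.0702).

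Among the other receptors, Fzd1 had signals of 160.9 and 158.4 in stressed rats and 217.2 and 185.7 in controls. Its log2 fold change of -0.33 had an unadjusted p of 0.0291 and an adjusted p of 0.091, and did not pass. Fzd2 and Fzd8 had log2 fold changes of 0.16 and 0.06, with groups that overlapped for neither gene and intervals from -0.17 to 0.48 and from -0.26 to 0.37. Fzd3, Fzd5, Fzd6 and Lrp5 were not tested, with signals of 45.4 or less. Fzd4 moved in the direction of the endothelial list, of which Flt1 rose by 0.87 and Vwf by 0.60 on the log2 scale, while Cldn5, which seals the endothelial junctions, had signals of 1364 and 1364 against 1363 and 1326 and did not pass. The part of endothelial cells in the rise of Fzd4 was not tested.

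Axin2 is a scaffold of the complex that marks beta-catenin for breakdown, and is itself a direct target of the pathway, for which reason its transcript is widely read as a measure of pathway activity. Its signal fell to about the 50% level in stressed rats, from 237.2 and 281.4 in controls to 134.0 and 125.0. The lower control array stood more than 100 units above the higher stressed array. The log2 fold change of Axin2 was -0.997 (s.e. 0.13, 95% interval -1.29 to -0.70, adjusted p = 0.00176), and the control signal was 2.00-fold that of stressed rats, just short of the study's 2-fold threshold before rounding. Among the alternatives the call was lost by the methods' t-test alone (adjusted p = 0.145), and the log2 fold change ranged from -1.12 to -0.78. Axin1, the constitutive homologue of Axin2, had signals of 216.3 and 239.8 against 265.5 and 229.0. The groups overlapped, and its log2 fold change of -0.11 (95% interval -0.38 to 0.15, adjusted p = 0.51) did not pass. Nkd1, which encodes an inhibitor of Dishevelled and is also induced by the pathway, had signals of 114.9 and 131.5 against 155.8 and 140.3 at 1 probe set and 106.8 and 118.3 against 109.4 and 107.9 at another. The log2 fold changes of Nkd1 were -0.27 (95% interval -0.59 to 0.06, adjusted p = 0.208) and 0.05 (95% interval -0.28 to 0.38, adjusted p = 0.832), and neither passed.

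TCF and LEF factors bind the sequence CTTTGAT or CTTTGAA. The 250 bases before the annotated gene start, taken from the RefSeq promoters of the rat assembly GRCr8, were searched for these letters on both strands, the forms differing in their last letter alone. Promoters were found for 37 of the 48 member genes. Only 2 of these 37 windows held a match (5.41%), those of Axin2 and Nkd1, beside 7.58% of all 33469 promoters of the same length. Axin2 held 2 matches, beginning 232 and 132 bases before the start, and Nkd1 held 1, beginning 141 bases before it. At least 2 matches were found in 0.478% of all promoters. The windows of Axin2 and Nkd1 are shown as the matching ones, and that of Lef1 as another gene that the pathway induces and whose window held neither form; capitals mark the matches. They lie at chr10:94398535-94398784 on the plus strand for Axin2, at chr19:34722847-34723096 on the minus strand for Nkd1 and at chr2:222340463-222340712 on the plus strand for Lef1. A match is a string of letters and not a bound site, and its absence from this window says nothing about binding elsewhere.
Axin2: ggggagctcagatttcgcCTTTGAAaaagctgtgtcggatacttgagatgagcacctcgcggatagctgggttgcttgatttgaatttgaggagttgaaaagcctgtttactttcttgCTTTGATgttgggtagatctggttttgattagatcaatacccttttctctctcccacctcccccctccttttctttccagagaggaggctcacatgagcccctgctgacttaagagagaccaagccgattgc
Nkd1: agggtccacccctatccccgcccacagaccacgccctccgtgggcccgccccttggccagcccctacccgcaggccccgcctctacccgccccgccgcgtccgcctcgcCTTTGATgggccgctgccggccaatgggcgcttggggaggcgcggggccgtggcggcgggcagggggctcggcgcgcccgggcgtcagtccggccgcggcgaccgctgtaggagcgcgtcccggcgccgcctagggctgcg
Lef1: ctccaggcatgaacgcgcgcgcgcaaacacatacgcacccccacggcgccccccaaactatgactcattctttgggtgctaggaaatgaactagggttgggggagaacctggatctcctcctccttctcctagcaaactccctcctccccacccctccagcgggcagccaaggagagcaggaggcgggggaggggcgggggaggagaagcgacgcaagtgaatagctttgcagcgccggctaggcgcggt

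Apc, a large protein of the complex that marks beta-catenin for breakdown, rose by small amounts at both tested probe sets. The brighter one gave 1532 and 1741 in stressed rats and 1349 and 1312 in controls, a log2 fold change of 0.30 (s.e. 0.07, adjusted p = 0.0164). The dimmer one gave 192.6 and 186.4 against 148.2 and 124.6, a log2 fold change of 0.48 (s.e. 0.13, adjusted p = 0.0357). The groups did not overlap at either. The dimmer call of Apc was lost in each removal of a single array (adjusted p from 0.0532 to 0.17), and the brighter one without stressed replicate 2 (0.0627), control replicate 1 (0.0729) or control replicate 2 (0.107). The dimmer call was also lost when dim probe sets were kept in (0.066) and the brighter one without an intensity trend (0.0833). Btrc encodes the F-box protein that recognises phosphorylated beta-catenin for ubiquitination. Its brightest probe set rose from 749.4 and 758.6 to 883.8 and 871.5, a log2 fold change of 0.22 (s.e. 0.05, adjusted p = 0.0228). The middle probe set of Btrc, at 208.9 and 201.4 against 159.4 and 162.1, had a log2 fold change of 0.35 and an adjusted p of 0.0535, while the dimmest, at 113.6 and 82.4 against 117.5 and 110.5, had one of -0.24 and an adjusted p of 0.394. The call of Btrc was lost in each removal of an array (adjusted p from 0.0614 to 0.0975) and without an intensity trend (0.075). Dvl1, the Dishevelled gene with tested probe sets, had log2 fold changes of 0.02 and 0.13 with groups that overlapped at both (adjusted p = 0.863 and 0.457), and Dvl2 and Dvl3 were below 100 on every array.

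Beta-catenin itself differed little. Ctnnb1 had 3 tested probe sets. At 1373470_at the signals were 6812 and 6961 in stressed rats and 6053 and 6136 in controls, a log2 fold change of 0.18 (s.e. 0.04, adjusted p = 0.0227). At 1373067_at, of like brightness, they were 5918 and 5939 against 6057 and 6118, a log2 fold change of -0.04 (95% interval -0.14 to 0.06, adjusted p = 0.546). The dimmest tested probe set of Ctnnb1, at 134.0 and 194.5 against 199.5 and 176.8, had overlapping groups and a log2 fold change of -0.22 (adjusted p = 0.42). The call at 1373470_at was lost in each removal of an array (adjusted p from 0.0809 to 0.131), without an intensity trend (0.117) and when dim probe sets were kept in (0.0515). Ctnnbip1, whose product keeps beta-catenin from TCF factors, had log2 fold changes of -0.11 and -0.13 at its 2 tested probe sets (adjusted p = 0.218 and 0.216).

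Pkp4 encodes plakophilin 4, an armadillo-repeat relative of beta-catenin at cell junctions. Its 2 probe sets went in opposite ways. At 1379571_at the signals fell from 1566 and 1630 in controls to 538.7 and 776.7 in stressed rats, a log2 fold change of -1.30 (s.e. 0.14, adjusted p = 9.18e-04), where the stressed pools differed more than the control pools. This was the member that passed the study's thresholds downward. At the brighter 1372744_at the signals rose from 3357 and 3397 to 4192 and 4135, a log2 fold change of 0.30 (s.e. 0.04, adjusted p = 0.0025). The groups did not overlap at either probe set, and both calls of Pkp4 were lost by the methods' t-test alone (adjusted p = 0.186 and 0.0884). Of 11 member genes with several tested probe sets, 6 had fold changes of mixed sign, and 2, Dkk3 and Pkp4, had calls in both directions.

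In the nucleus the transcripts of Lef1 and Tle3 changed. Lef1 encodes the lymphoid enhancer factor through which beta-catenin activates genes. At 1370138_at its signals rose from 59.2 and 82.3 in controls to 120.6 and 181.1 in stressed rats. The groups did not overlap, the 2 stressed pools lay well apart, and this was the tested member that reached 100 in 1 group alone, so that it passed the signal filter through the group in which it was high. The log2 fold change of Lef1 was 1.08 (s.e. 0.24, 95% interval 0.53 to 1.64, adjusted p = 0.0159), a fitted rise of 2.12-fold, past the study's thresholds. With an offset of 50 the log2 value of Lef1 was 0.72, and by the methods' t-test no member was higher at those thresholds, while 9 were higher at unadjusted p under 0.05. Without stressed replicate 2 it was 0.79 (adjusted p = 0.0684), without control replicate 1 0.84 (adjusted p = 0.0991), and without an intensity trend its adjusted p was 0.0544. The other probe set of Lef1, 1383785_at, gave 172.3 and 157.7 against 164.3 and 145.2, with overlapping groups, a log2 fold change of 0.09 and an adjusted p of 0.634. Tle3 encodes a Groucho co-repressor that silences TCF targets. It fell from 387.6 and 402.4 to 298.2 and 311.1, a log2 fold change of -0.37 (s.e. 0.08, adjusted p = 0.014) at its only probe set. The call of Tle3 was lost without stressed replicate 1 (adjusted p = 0.0515), control replicate 1 (0.0593) or control replicate 2 (0.0909).

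The remaining nuclear members did not pass. Tcf7l2 had signals of 359.1 and 324.7 in stressed rats and 300.9 and 297.0 in controls. The groups did not overlap, but the log2 fold change of 0.19 (95% interval -0.02 to 0.40) had an adjusted p of 0.158. Tle1 and Tle4 had log2 fold changes of 0.05 and 0.13 (adjusted p = 0.624 and 0.145). Tcf7 and Tcf7l1 stayed under 100 on all arrays. Lef1 and Tcf7l2 are also known from the thalamus, which borders the hippocampus. Of 14 tested probe sets of thalamic and habenular markers 3 were higher and 1 was lower at adjusted p from limma. This is 21.4% and 7.14%, beside 12% and 11.8% of all probe sets tested. Their median log2 fold change was 0.10. Their summed signals were 9379 and 9002 on the stressed arrays against 8163 and 8325 on the control arrays. A sum is weighted to its brightest probe sets, and Slc17a6 gave 526.7 and 503.8 of it against 452.1 and 474.2. The probe sets that rose were of Nr4a2 (0.42), Amotl1 (0.35) and Cplx1 (0.20), and the one that fell was of Rora (-0.51). Another probe set of Cplx1, at 0.18, did not pass by limma (adjusted p = 0.265). Of other markers in the list, Slc17a6, Prkcd and Ntng1 had log2 fold changes of 0.15, -0.17 and 0.07 and did not pass, and Shox2 and Gbx2 had signals of 21.0 or less. No marker of this list was at 0, which again does not mean that each was detected. The part of thalamic tissue or of vessels in the Lef1 signal was not tested.

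The filter kept or dropped some members by a narrow margin. Just inside it were a Wnt2 probe set, at 101.0 and 96.1 in stressed rats and 109.9 and 79.9 in controls, and the dimmest probe set of Btrc. Just outside it were a Nkd1 probe set that reached 108.9 on 1 control array and a Tle4 probe set that reached 103.2 on 1 control array. Of the 41 tested members, 37 reached 100 on all 4 arrays, and these included 13 of the 15 members called, all but Lef1 and Lrp6.

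The pathway genes outside the member list were described from a further list of 117 symbols, of which 100 genes were on the array and 115 probe sets of 79 genes were tested. Of these, 15 were higher and 28 were lower in stressed rats at adjusted p under 0.05, which is 13.0% and 24.3%, beside 12% and 11.8% of all probe sets tested. The 15 belonged to 14 genes and the 28 to 23 genes. The list was chosen with earlier results of these data known, so that its shares, and those of its roles below, are descriptions and no test. The median log2 fold change was -0.01, against 0.02 over all probe sets tested. The rises fell to 8 in number without an intensity trend, and to 7 or 6 when control replicate 1 or 2 was left out, where the falls were 19 or 18. The rises over all probe sets tested went from 1771 to 1000, 817 and 650 under the same settings, and the falls from 1744 to 910 and 791 without these arrays. The methods' t-test left 0 rises and 1 fall at adjusted p, and 17 rises and 28 falls at unadjusted p under 0.05. Described here by name are the probe sets that changed by 1.5-fold or more at adjusted p under 0.05, together with the other tested probe sets of the same genes. Of the 115 probe sets 1 rose and 17 fell by this much, where falls also outnumbered rises over all probe sets tested, at 4.08% against 1.61%.

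**Figure D4:**
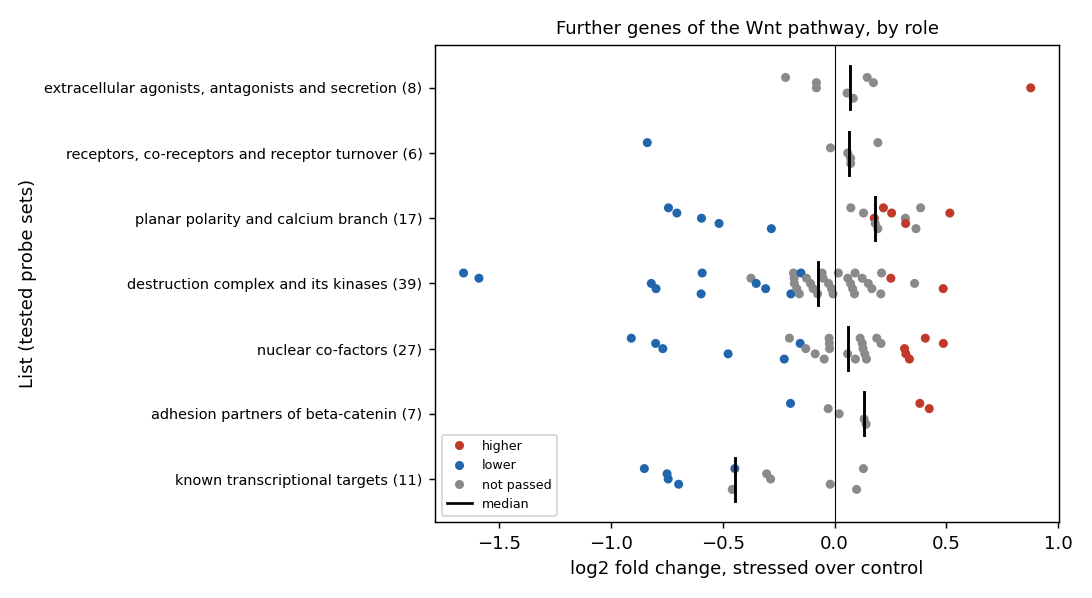
Log2 fold change of stressed over control rats for each tested probe set of the further pathway genes, by role, with the number of tested probe sets in brackets, the limma call as colour and the list median as a black bar. The median of the known transcriptional targets is -0.45 and those of the other roles lie between -0.08 and 0.18.

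Among genes of the destruction complex, its kinases and their regulators more probe sets were lower than higher, and some genes had calls in both directions. Of 39 tested probe sets of this role 10 were lower and 2 were higher, which is 25.6% and 5.13% beside 11.8% and 12% of all probe sets tested. Gsk3b, the kinase that marks beta-catenin for breakdown, fell from 589.9 and 628.2 in controls to 414.0 and 391.7 in stressed rats, a log2 fold change of -0.60 (s.e. 0.07, adjusted p = 0.00136). Frat2, whose product binds Gsk3 and keeps it from Axin, fell from 861.9 and 876.5 to 281.0 and 297.2, a log2 fold change of -1.59. For both genes the groups were far apart against the spread of the replicates. Csnk2a1, the gene of a catalytic subunit of casein kinase II, had 2 probe sets that fell, with log2 fold changes of -1.66 and -0.59, 1 that rose by 0.25 and 1 at 0.02 that did not pass. Csnk2a2, the gene of the alternative catalytic subunit, had values of -0.82, 0.49 and -0.11 on that scale, the last of which did not pass. Cxxc4, which encodes a Dishevelled inhibitor, fell from 161.4 and 140.2 to 86.8 and 86.3, a log2 fold change of -0.80 (adjusted p = 0.00768), and its call was lost without control replicate 1 (adjusted p = 0.067). Cxxc4 and the dimmest tested Csnk2a1 probe set, at 56.5 and 63.8 in stressed rats against 192.4 and 186.4 in controls, had both stressed signals under 100 and passed the filter through the control group alone. With an offset of 50 their log2 fold changes were -0.55 and -1.12.

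Nuclear co-factors showed the same mixture of directions within genes. Of 27 tested probe sets 5 were higher and 6 were lower, which is 18.5% and 22.2% beside 12% and 11.8% of all. Nlk, a kinase that acts on TCF and LEF factors, fell at 1 probe set from 678.7 and 621.8 to 362.2 and 330.9, a log2 fold change of -0.91 (adjusted p = 3.28e-04), whereas its other 3 probe sets had values of 0.12, -0.09 and -0.02 and did not pass. Tbl1x and Tbl1xr1 encode exchange factors that help beta-catenin at its targets. Tbl1x had log2 fold changes of -0.80, -0.48 and 0.33, all past the test, the first not without control replicate 2 (adjusted p = 0.109). The first, at 76.2 and 71.0 against 115.3 and 142.1, passed the filter through the control group alone, and with an offset of 50 its value was -0.53. Tbl1xr1 had values of -0.77 and 0.31, which passed, and 0.14, which did not.

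In the planar polarity and calcium branch 5 probe sets were higher and 5 were lower of 17 tested, which is 29.4% each way beside 12% and 11.8% of all. Rhoa, a small GTPase that shapes the cytoskeleton downstream of Dishevelled, fell at both tested probe sets, by 0.74 and 0.59 on the log2 scale. The brighter one fell from 1589 and 1500 in controls to 1050 and 996.2 in stressed rats. Prickle2, which encodes a polarity protein of synapses, fell by 0.70 at 1 probe set and rose by 0.22 and 0.18 at brighter ones. Among receptors outside the member list Adgra2, which encodes a partner of Wnt7a receptors in brain vessels, fell from 288.8 and 273.6 to 148.8 and 166.5, a log2 fold change of -0.84 (adjusted p = 0.00206). Adgra2 lay on the other side of 0 from Fzd4 and the endothelial list, and the part of vessels in its fall was not tested. Sostdc1, a secreted inhibitor that also stands in the choroid plexus list, rose from 617.2 and 586.5 to 1140 and 1071, a log2 fold change of 0.88 (adjusted p = 1.10e-04), and the part of choroid plexus in it was not tested.

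The list of known targets leaves out Axin2, Lef1 and Nkd1 because they are members. Of these, Axin2 fell, Lef1 rose at 1 of its 2 tested probe sets and Nkd1 did not pass. The list held 15 symbols, of which 6 genes had a tested probe set and 7 more were on the array but too dim. Of 11 tested probe sets of Id2, Ccnd1, Ccnd2, Jun, Prox1 and Neurod1, 5 were lower and none was higher at adjusted p from limma, against 7 lower and none higher at unadjusted p under 0.05. The 5 that were lower belonged to 4 genes, so that they are not all independent of each other. Over all probe sets tested 11.8% were lower and 12% higher at adjusted p. The methods' t-test called none at adjusted p and 4 lower at unadjusted p. Id2, an inhibitor of helix-loop-helix factors, fell at both probe sets, from 4504 and 4674 to 2682 and 2782 at the brighter one, with log2 fold changes of -0.75 and -0.85 (adjusted p = 6.54e-05 and 5.77e-04). Ccnd2, which encodes a cyclin needed for adult neurogenesis, fell from 1980 and 2012 to 1224 and 1240, a log2 fold change of -0.70 (adjusted p = 8.35e-05). The groups were wide apart at these 3 probe sets. Ccnd1 had a log2 fold change of -0.74 at 1 probe set (adjusted p = 0.0368), with values of -0.46 and -0.29 at 2 others that did not pass. Its call was lost without stressed replicate 2 (adjusted p = 0.0929), control replicate 1 (0.2) or control replicate 2 (0.0907). Jun had log2 fold changes of -0.45, which passed, -0.30 and -0.02. Prox1 and Neurod1, which mark dentate granule cells and their precursors, had log2 fold changes of 0.10 and 0.13 and did not pass. The 7 tested probe sets of the granule cell list ran from -0.15 to 0.91, and 1 of them was higher. The number of target probe sets that fell was 3 without control replicate 1 and 3 without an intensity trend. These genes answer to other signals as well, the meningeal markers fell on the same arrays, and the part of either in these values was not tested.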

How the data were processed

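Total hippocampal RNA of 4 pools was hybridized by the authors to the Affymetrix GeneChip Rat Genome 230 2.0 Array, and the signal intensities were made with GCOS at a target value of 300. The deposited values were linear intensities and were used with no further normalization. Signals under 0.1 were set to 0.1 and log2 was taken. Probe sets were named by the platform annotation, with symbols updated through gene identifiers to a RefSeq table of GRCr8, where all 84 members matched. Detection calls and probe sequences were not used.

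Stressed and control arrays were compared with limma 3.58.1 (R 4.3.3), using an intensity trend, no block and Benjamini-Hochberg adjustment over all 14791 probe sets that reached 100 on 2 arrays. Intervals of 95% used its 7.73 degrees of freedom. The comparison was tested on simulated data. Named were all members past adjusted p under 0.05 or the study's thresholds, other tested probe sets of those genes, the pathway's hub genes and, of the further list, changes of 1.5-fold or more that passed; Nkd1 and genes that did not pass were added after their values were seen. Members and lists were chosen with earlier results of these data known. The number of arrays limits the precision. Figures were drawn with python 3.11.15 and matplotlib 3.10.9.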

Additional observations from a re-analysis of the deposited data

How the results depend on the processing

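The 10 rises and 5 falls among members were the same in number after quantile normalization, median centring, an offset of 50 and a mean signal of 100 or more, and 12 of the 12 calls that could be compared were kept at a signal of 200 on 2 arrays. Rises numbered 6 without an intensity trend and 4 with the mean of all tested probe sets of a gene. The methods' t-test on log2 signals gave 0 rises and 0 falls at adjusted p, 9 and 5 at unadjusted p under 0.05, and 0 and 1 at the study's thresholds. When each array was left out in turn, rises ranged from 4 to 7 and falls from 2 to 5, with fewer arrays and less power in each. At the study's thresholds members were higher in 2 cases with no filter on dim probe sets and in 0 at a signal of 200, with an offset of 50 or with gene means, and lower in 2 after quantile normalization and 0 with gene means, which merge the Pkp4 probe sets; over the removals of an array they ranged from 0 to 1 higher and from 1 to 2 lower. The replicate numbers were not shown to pair the arrays (correlation of deviations -0.11): with the replicate number as a block 7 members rose and 5 fell, the calls of Ctnnb1 1373470_at (adjusted p = 0.104), Apc 1387837_at (0.0507) and Btrc 1398415_at (0.0533) being lost, and in a crossed pairing, added after seeing the data, 10 and 5. Among the 41 tested members the sign turned under these alternatives at 5 probe sets, none of them called, each when an array was left out. Ctnnb1 1369733_at ranged from -0.487 to 0.0505 (0.0505 without stressed replicate 1), Dvl1 1369997_at from -0.0095 to 0.0545 (-0.0034 without stressed replicate 1, -0.0095 without control replicate 1), Nkd1 1375959_at from -0.0247 to 0.123 (-0.0247 without stressed replicate 2), Wnt2 1386807_at from -0.158 to 0.302 (-0.158 without control replicate 2) and Wnt7a 1380958_at from -0.184 to 0.15 (0.0495 without stressed replicate 1, 0.15 without control replicate 2). The cause of these shifts was not tested. Members under a signal of about 100 are limited by background.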
